A study of Arabidopsis thaliana with 6 samples.

Results

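UDP-glycosyltransferases (UGTs) are the plant enzymes that attach a sugar from a UDP-sugar to small molecules, and 47 of the 22746 probe sets compared between the ceh1 mutant of Arabidopsis thaliana and its parent line measured one of them. A probe set was taken as a member where it was paired with a single gene whose symbol, in the platform annotation or the gene table, begins with UGT and a number. Each of the 47 stood for a different gene. The gene table lists 58 such symbols, and the other 11 genes, among them UGT74F2, UGT75B1 and UGT84A2, had no probe set of their own in the annotation used. The symbols were borne out by the gene table for all 47 members.

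The groups were ceh1 mutant plants and plants of the parent line, which the labels call wild type, with 3 biological replicates each and 1 array per replicate. Both genotypes had 2 days of cold (4 °C) as seeds and were 2 weeks old when used, on 1/2 MS medium at 23 °C and 60% humidity, in days of 8 h of light at 100 to 150 µE and 16 h of dark. RNA was taken from these plants, and since the labels name no organ, more cells of a type and more RNA per cell cannot be told apart. As background, ceh1 carries a lesion in the gene for HDS, which acts in the plastid route to isoprenoids, and the mutant is known for high salicylic acid. The parent in which it was found is known to carry a luciferase reporter. The comparison asks how transcripts differ between the mutant and that parent.

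As background on the family, a UGT binds its UDP-sugar through a conserved stretch near its C-terminus, while the N-terminal part receives the acceptor. Acceptors include hormones such as salicylic acid, auxin, cytokinin and abscisic acid, as well as flavonoids, monolignols, glucosinolate precursors and foreign compounds. Glycosylation usually makes the acceptor more soluble, stores it in the vacuole and lowers its activity. Many UGT genes lie next to close relatives in the genome, and the number and letter of a symbol name its subfamily.

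The deposited values are MAS5 intensities, 1 per probe set and not logged. They were taken here as log2(intensity + 2) and quantile normalised, and all log2 signals below are on that scale, where differences of dim probe sets are understated. The trimmed mean intensity ran from 130.0 to 175.7 on ceh1 arrays and from 109.8 to 171.4 on parent arrays, so the arrays were not at a common level. Of all probe sets, those with a mean log2 signal above 3.80, the 30th percentile, were tested with limma (15922 probe sets, Benjamini-Hochberg adjusted p under 0.05). This filter kept 27 UGTs and left out 20, or 42.6% of the family. For those 20 dim members, values are given and any p comes from a limma fit without the filter. No detection calls were used here.

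UGT87A2 rose in ceh1, as the 1 UGT past the threshold among the 27 tested, and 0 fell. That is 1 of 27, beside 3.77% of all tested probe sets. With 1 call among 27, the share of the family cannot be placed against the background. Among rises alone the background was 2.62%, and among falls 1.15%. Without normalization between arrays 4.51% of tested probe sets passed. In that setting 657 probe sets rose and 61 fell, against 417 and 183 here, and the median of all differences moved to 0.21 on the log2 scale. UGT87A2 was again the 1 UGT past the threshold there. With array weights 4 of the 27 UGTs passed, beside 11.4% of tested probe sets, UGT87A2 and UGT85A2 rising and UGT76C1 and UGT76C2 falling. An unadjusted p under 0.05 was reached by 6 of the 27 tested UGTs, or 22.2%, beside 20.9% of all tested probe sets.

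The UGTs lay on both sides of 0. The median log2 fold change of the 27 tested members was −0.03, equal at that precision to the −0.03 of all tested probe sets, and 13 of the 27 lay above 0, or 19 of 27 without normalization between arrays. Over all 47 members the median was 0.15, against −0.04 over all 22746 probe sets. These medians depended on the scaling, being −0.02 and −0.08 with median scaling and 0.24 and 0.18 without normalization between arrays. Differences ran from −1.20 for UGT76D1 to 3.51 for UGT71B6. A difference of at least 1 in log2, which is 2-fold, was seen upwards in 11 of the 47 members and downwards in 1, or 23.4% and 2.13%. Over all probe sets these shares were 5.83% and 4.63%. Of the 11 upward members 6 were dim, as was the 1 downward member, and over all dim probe sets the shares were 6.92% and 7.17%. Some of the 11, such as UGT76B1 and UGT85A4, overlapped between genotypes. The count also depends on the pseudocount. With a pseudocount of 8, UGT73B5, UGT76E2 and UGT85A7 had differences of 0.96, 0.83 and 0.76. UGT87A2, UGT85A4, UGT71B5 and UGT71B6 stayed above 1 in that setting.

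For some members the arrays of the genotypes did not overlap. All 3 ceh1 arrays lay above all 3 parent arrays for 10 of the 47 UGTs, beside 10.6% of all probe sets, and below them for 1, UGT76C1, beside 12.6%. Among the 27 tested members these counts were 5 and 1, beside 12.4% and 15.1% of tested probe sets. The shares were not tested against each other. The 10 members were UGT71B5, UGT71B6, UGT71C1, UGT72E1, UGT73B4, UGT73B5, UGT73C1, UGT76E2, UGT85A2 and UGT87A2. For the remaining 36 members the arrays of both genotypes overlapped.

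**Figure D1:**
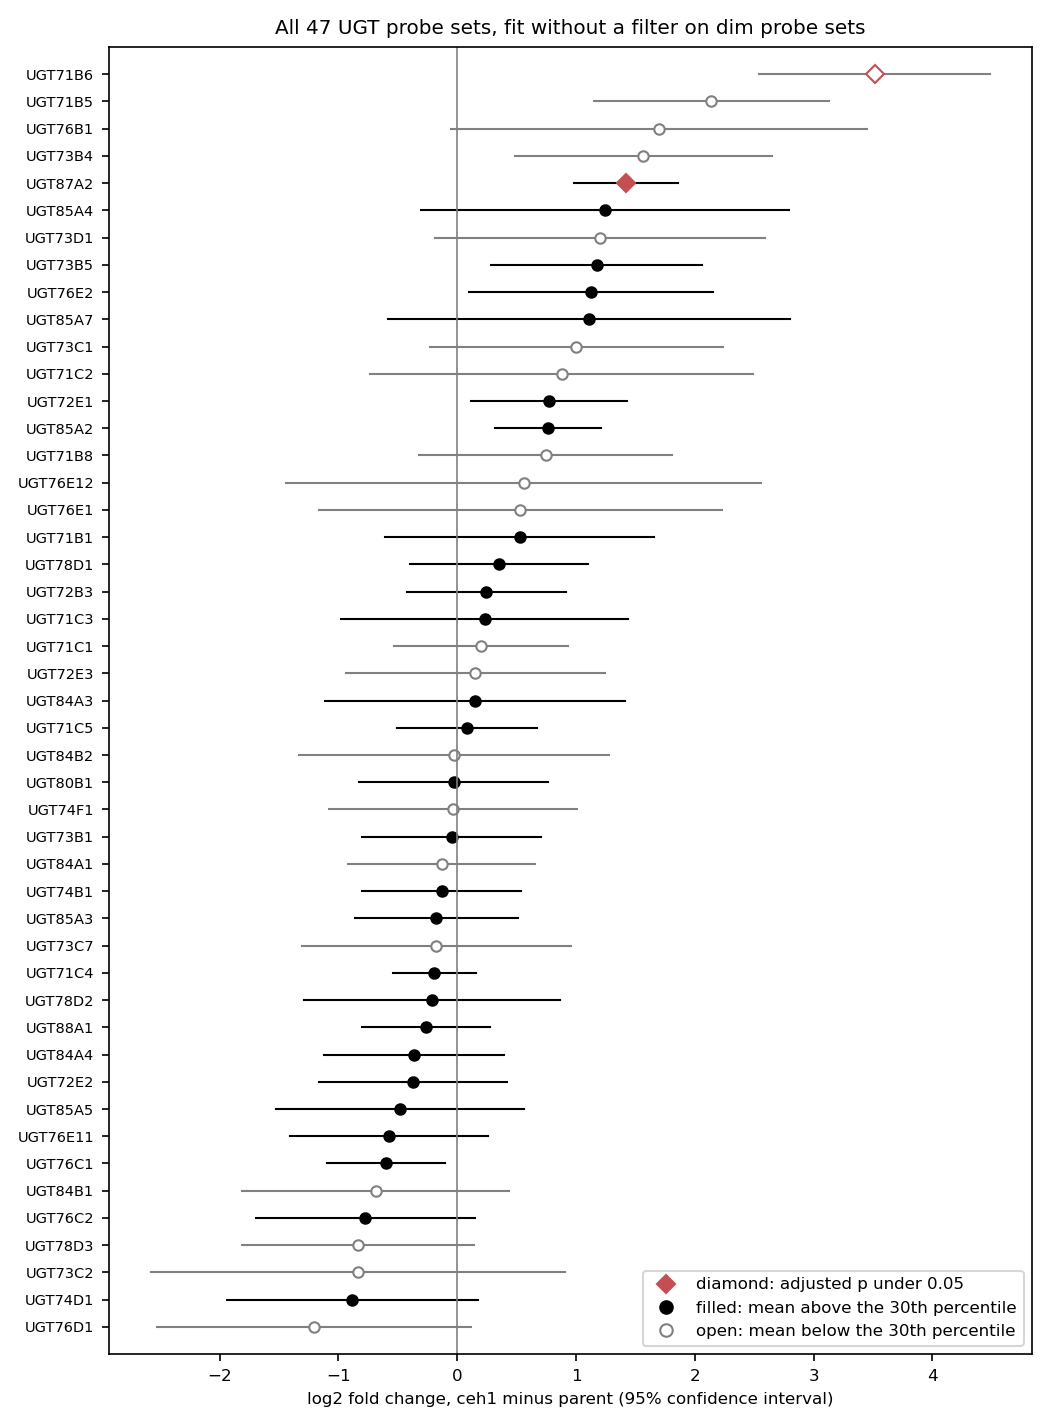
Log2 fold change (ceh1 minus parent, x axis) of each of the 47 UGT probe sets (y axis), with 95% confidence intervals from the limma fit without a filter. Filled points mark the 27 members above the filter level and open points the 20 below it, and the diamonds mark UGT71B6 at 3.51 and UGT87A2 at 1.42, the 2 members with an adjusted p under 0.05 in that fit.

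UGT87A2, which has been linked to flowering time and stress responses, had log2 signals of 7.50, 7.78 and 8.03 in ceh1 replicates 1, 2 and 3 and of 6.30, 6.28 and 6.47 in parent replicates 1, 2 and 3. Every ceh1 array was thus above every parent array, and the gap between the genotypes was wider than the spread within either. The deposited intensities were 160.2, 266.8 and 309.2 on the ceh1 arrays and 87.5, 67.4 and 64.7 on the parent arrays. UGT87A2 averaged 7.77 ± 0.26 in ceh1 and 6.35 ± 0.11 in the parent (SD, n = 3 each), a log2 fold change of 1.42 ± 0.19 (SE) with an adjusted p of 0.0107 (limma). The call was lost without parent replicate 1 or parent replicate 2, at an adjusted p of 0.0633 and 0.0659 (limma), while the log2 fold change stayed at 1.39 and 1.38.

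The widest difference in the family was that of UGT71B6, which glucosylates abscisic acid. Its log2 signals were 4.24, 5.49 and 4.60 in ceh1 and 1.25, 1.24 and 1.29 in the parent. The parent arrays lay together at the floor that the pseudocount sets, with deposited intensities of 0.349, 0.393 and 0.430, while the ceh1 arrays had 16.8, 49.9 and 27.9. Its mean over the 6 arrays was below the filter, so it was not among the tested members. In the fit without the filter UGT71B6 rose by 3.51 ± 0.42 (SE) in log2, with an adjusted p of 0.00944 (limma), and 2 of the 47 UGTs then passed, beside 2.30% of all probe sets. The size depends on the pseudocount, being 4.24 with a pseudocount of 1 and 2.01 with 8. Without parent replicate 1 or 2 the adjusted p was 0.0508 and 0.0548 (limma, no filter).

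UGT71B5, of the same subfamily and chosen for mention after its values were seen, as was UGT71B6, had log2 signals of 4.40, 4.52 and 3.96 in ceh1 and of 2.83, 1.62 and 2.03 in the parent. The genotypes did not overlap here either. Its log2 fold change of 2.14 ± 0.42 (SE) did not pass in the fit without the filter (limma, adjusted p = 0.0509). It passed there with a pseudocount of 8, without normalization between arrays and with median scaling, at an adjusted p of 0.0404, 0.0220 and 0.0404 (limma). The abscisic acid group also held UGT71B8 and UGT71C5, and both overlapped between genotypes. UGT71B8 had log2 signals of 2.32, 1.79 and 3.23 in ceh1 against 1.98, 1.43 and 1.69 in the parent, near the floor. UGT71C5, the 1 tested member of the 3 in this group, differed by 0.08, with a 95% confidence interval from −0.51 to 0.68 (limma, adjusted p = 0.889).

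**Figure D2:**
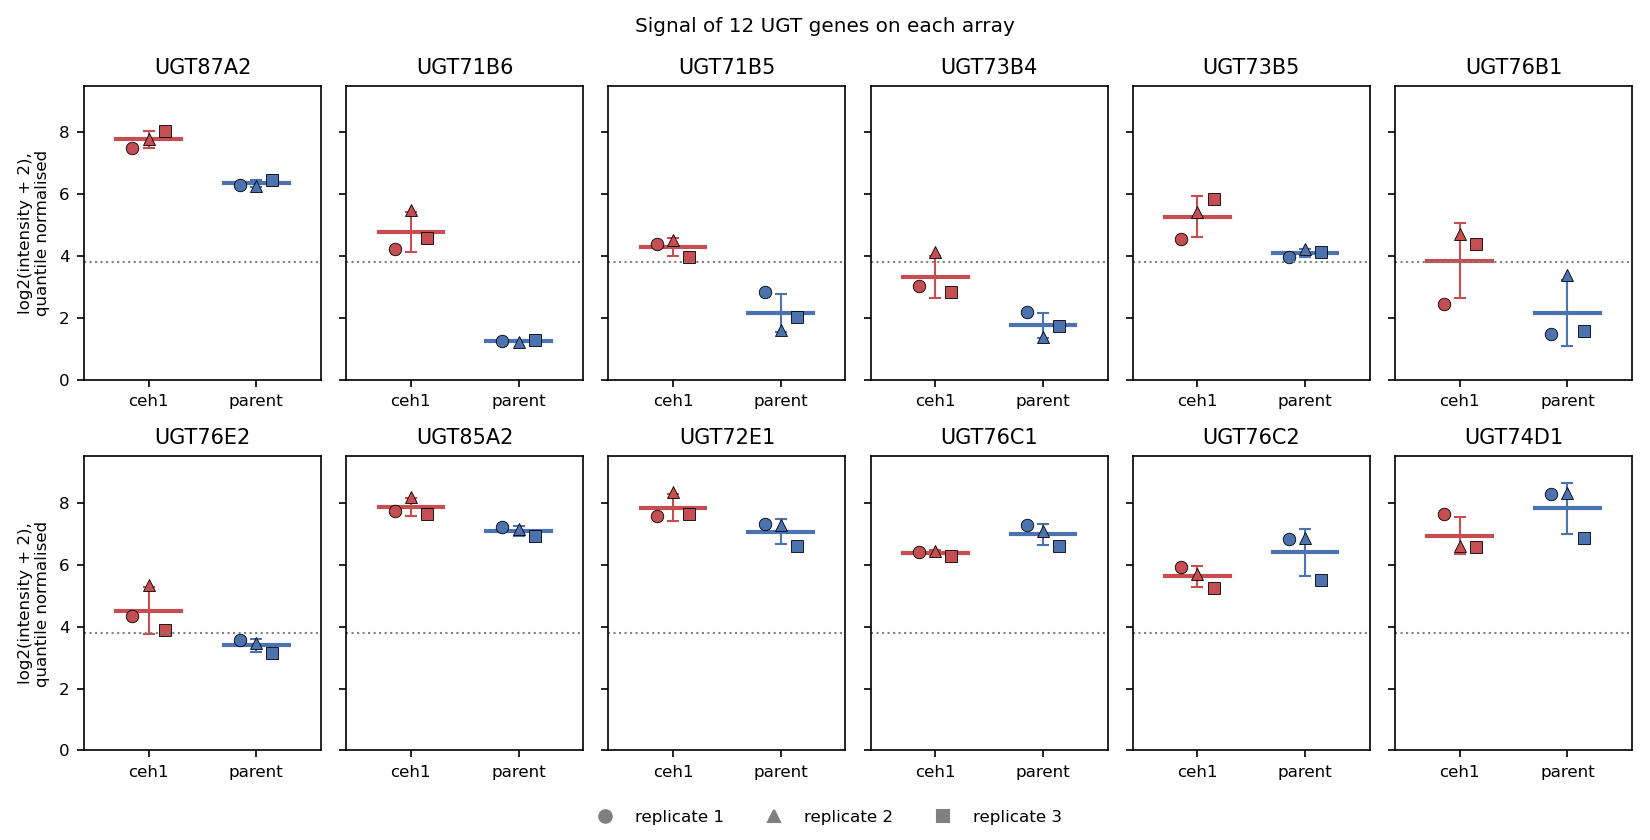
Log2(intensity + 2) after quantile normalization (y axis) of 12 UGT genes on each array, with ceh1 left of the parent. Symbols mark the replicates, bars the mean, whiskers the SD and the dotted line the filter level of 3.80, and the 3 ceh1 arrays stand clear of the parent arrays for UGT87A2, UGT71B6 and UGT71B5 but not for UGT76B1, UGT76C2 or UGT74D1.

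Of the UGTs that act on salicylic acid, both with a probe set of their own were dim. UGT76B1, which glucosylates isoleucic acid, salicylic acid and N-hydroxypipecolic acid, had log2 signals of 2.45, 4.71 and 4.41 in ceh1 and of 1.50, 3.38 and 1.59 in the parent. Replicate 2 was the highest array in both genotypes, and ceh1 replicate 1 lay below parent replicate 2, so the genotypes overlapped. The log2 fold change was 1.70, with a 95% confidence interval from −0.05 to 3.45, and did not pass without the filter (limma, adjusted p = 0.308). UGT74F1, which makes salicylic acid 2-O-glucoside, had log2 signals of 1.47, 2.81 and 1.80 in ceh1 and of 2.04, 2.34 and 1.80 in the parent. All 6 values lay near the floor, and the difference of −0.03 had an interval from −1.08 to 1.01.

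All 3 UGTs of the stress and xenobiotic group had ceh1 arrays above every parent array, beside 10.6% of all probe sets. The 1 tested, UGT73B5, did not pass, and the others were dim. The 4 UGT73 members outside this group overlapped between genotypes. UGT73B1, UGT73C2 (a neighbour of UGT73C1) and UGT73C7 had differences below 0, and UGT73D1 had one above 0. UGT73B5, which is needed in the response to Pseudomonas and also conjugates xenobiotics, had log2 signals of 4.56, 5.43 and 5.85 in ceh1 and of 3.96, 4.22 and 4.14 in the parent. Its log2 fold change was 1.17 ± 0.36 (SE; limma, adjusted p = 0.126). Its neighbour in the genome UGT73B4, which conjugates nitroaromatic compounds, was dim and had 3.04, 4.12 and 2.83 in ceh1 against 2.18, 1.38 and 1.73 in the parent. The ceh1 arrays were again the higher 3, with a difference of 1.57 (limma without the filter, adjusted p = 0.145). UGT73C1, another gene whose product conjugates nitroaromatic compounds, had 2.21, 2.20 and 3.88 in ceh1 and 1.57, 1.64 and 2.07 in the parent. Its difference of 1.00 rested largely on ceh1 replicate 3, and the lower ceh1 arrays were close to parent replicate 3 (limma without the filter, adjusted p = 0.401).

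UGT76C1 and UGT76C2 are neighbours, and both products N-glucosylate cytokinins. Both had differences below 0, as did 53.3% of all probe sets, and neither passed the test. UGT76C1 had log2 signals of 6.43, 6.45 and 6.30 in ceh1 and of 7.28, 7.08 and 6.62 in the parent. It was the 1 member with all ceh1 arrays below all parent arrays, and its log2 fold change was −0.60 ± 0.21 (SE; limma, adjusted p = 0.161). UGT76C2 had 5.91, 5.71 and 5.26 in ceh1 and 6.82, 6.87 and 5.52 in the parent. Here parent replicate 3 fell among the ceh1 arrays, and the log2 fold change was −0.77 ± 0.39 (SE; limma, adjusted p = 0.310). Without parent replicate 3 it was −1.22 and passed (limma, adjusted p = 0.0447). With array weights both passed, UGT76C1 at an adjusted p of 0.0303 and UGT76C2 at 0.0463 (limma).

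For auxin, UGT74D1, whose product glucosylates auxins, also overlapped between genotypes. It had log2 signals of 7.64, 6.61 and 6.57 in ceh1 and of 8.30, 8.30 and 6.87 in the parent. Parent replicates 1 and 2 were the highest arrays, whereas parent replicate 3 lay below ceh1 replicate 1. The log2 fold change was −0.88 ± 0.46 (SE; limma, adjusted p = 0.328). The neighbours UGT84B1, whose product glucosylates indole-3-acetic acid, and UGT84B2 were dim and overlapped between genotypes, with differences of −0.69 and −0.03. IAGLU, an indole-3-acetate glucosyltransferase gene by the gene table's name and no member by its symbol, had 5.35, 5.57 and 5.22 in ceh1 and 6.10, 6.15 and 6.35 in the parent. Every ceh1 array was below every parent array, with a log2 fold change of −0.82 ± 0.19 (SE) that did not pass (limma, adjusted p = 0.0598).

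In the phenylpropanoid group of 7 UGTs, 4 were tested and 0 passed, with a median of −0.11. So few genes cannot be placed against the 3.77% of all tested probe sets that passed. UGT72E1, whose product glucosylates coniferyl aldehyde, had log2 signals of 7.56, 8.35 and 7.63 in ceh1 and of 7.32, 7.29 and 6.62 in the parent. The ceh1 arrays were the higher 3, with a log2 fold change of 0.77 ± 0.29 (SE; limma, adjusted p = 0.189). The monolignol glucosyltransferase gene UGT72E2 had a difference of −0.37, and its close relative UGT72E3 was dim with 0.15. UGT84A1, UGT84A3 and UGT84A4, which lie side by side and whose products make hydroxycinnamate esters of glucose, had differences of −0.13, 0.15 and −0.37. UGT71C1, whose product glucosylates phenylpropanoids, had all 6 log2 signals between 1.34 and 1.64, at the floor, although its ceh1 arrays were the higher 3.

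The flavonoid UGTs overlapped between genotypes. UGT78D1, which attaches rhamnose to flavonols, had log2 signals of 7.80, 7.04 and 8.20 in ceh1 and of 7.67, 7.37 and 6.94 in the parent, a difference of 0.35 ± 0.33 (SE; limma, adjusted p = 0.601). UGT78D2, which attaches glucose to flavonols and anthocyanidins, had 7.38, 6.17 and 7.04 in ceh1 and 7.58, 7.53 and 6.12 in the parent. One array of each genotype was low, ceh1 replicate 2 and parent replicate 3, and the 95% confidence interval of the difference ran from −1.29 to 0.87. The neighbour UGT78D3, which attaches arabinose to flavonols, was dim, with a difference of −0.83 (limma without the filter, adjusted p = 0.374).

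UGTs for glucosinolates and sterols had intervals that span 0. UGT74B1, which glucosylates thiohydroximates in glucosinolate synthesis, had log2 signals of 9.00, 8.69 and 9.67 in ceh1 and of 9.20, 8.92 and 9.63 in the parent, with a difference of −0.13 and an interval from −0.82 to 0.56. UGT80B1, which glucosylates sterols, differed by −0.03, from −0.82 to 0.76. Signs of both, and of UGT71C4, turned without normalization between arrays. UGT71C4 had the smallest standard error of the tested members, with log2 signals of 8.39, 8.71 and 8.53 in ceh1 and of 8.61, 8.81 and 8.79 in the parent, and its difference of −0.19 had an interval from −0.57 to 0.19. These intervals are those of the quantile-normalised fit, and a change as large as 2-fold lies outside them for these 3 genes in that scaling only. UGT76D1, whose product glucosylates dihydroxybenzoates, was dim, with log2 signals of 1.66, 2.74 and 3.72 in ceh1 and of 4.43, 3.73 and 3.57 in the parent. These overlapped by 1 array of each genotype, and the difference of −1.20 did not pass without the filter (limma, adjusted p = 0.341).

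**Figure D3:**
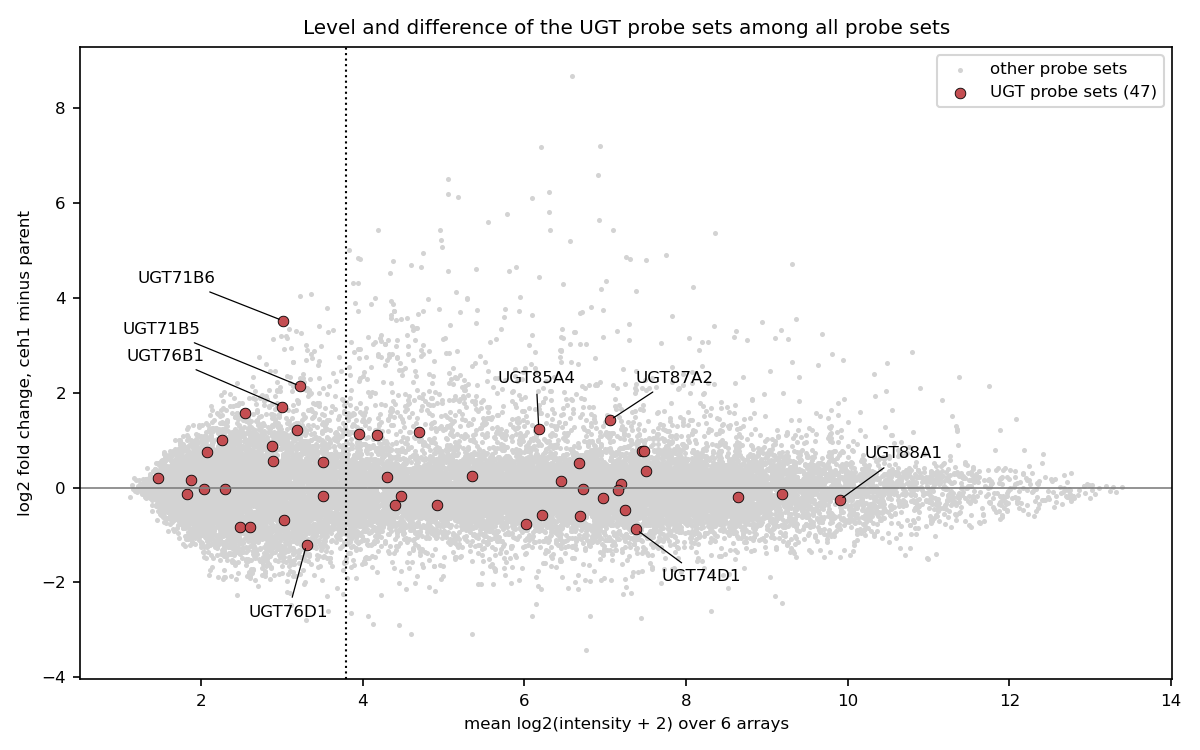
Log2 fold change (ceh1 minus parent, y axis) against the mean log2 signal over the 6 arrays (x axis) for the 47 UGT probe sets in red and all other probe sets in grey, from the fit without a filter. The dotted line is the filter level of 3.80, and UGT71B6, UGT71B5 and UGT76B1 lie to its left, among the dim probe sets, while UGT87A2 lies to its right at 1.42.

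Among UGTs without an acceptor in the role list, 3 of 20 had ceh1 arrays above all parent arrays, beside 10.6% of all probe sets. These were the dim UGT71B5, described above, and the tested UGT85A2 and UGT76E2. UGT85A2 had log2 signals of 7.75, 8.18 and 7.65 in ceh1 and of 7.21, 7.16 and 6.92 in the parent, a log2 fold change of 0.77 ± 0.20 (SE; limma, adjusted p = 0.0847). Under array weights the adjusted p was 0.0462 (limma). UGT76E2 had 4.33, 5.35 and 3.88 in ceh1 and 3.56, 3.47 and 3.16 in the parent. All its parent arrays lay below the filter level, which it passed through ceh1. The gap between its lowest ceh1 and highest parent array was narrow beside the spread within ceh1, and the log2 fold change of 1.13 ± 0.44 (SE) did not pass (limma, adjusted p = 0.202). UGT85A4 had 6.70, 7.96 and 5.73 in ceh1 and 6.04, 6.27 and 4.37 in the parent. Replicate 2 was highest and replicate 3 lowest in both genotypes, so the groups overlapped, and its difference of 1.24 ± 0.66 (SE) did not pass (limma, adjusted p = 0.342).

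Neighbouring UGT genes did not all have differences of the same sign. The gene order of the TAIR10.1 gene table was used for which genes neighbour each other, a cluster being UGT genes at most 3 protein-coding loci apart. There were 13 clusters with at least 2 members on the array, holding 31 of the 47. In 7 clusters all members had differences of one sign, and in 6 the signs were mixed, against 6 and 7 with median scaling. UGT71B6 lies beside UGT71B1 and UGT71B8, with differences of 3.51, 0.53 and 0.75. UGT71B1 had log2 signals of 6.39, 6.59 and 7.84 in ceh1 and of 5.78, 6.20 and 7.26 in the parent, where replicate 3 was the highest array of each genotype and the groups overlapped. In the UGT85A cluster UGT85A7 and UGT85A2 had differences of 1.11 and 0.77, and UGT85A5 and UGT85A3 had −0.48 and −0.17. The differences between neighbours were not tested.

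**Figure D4:**
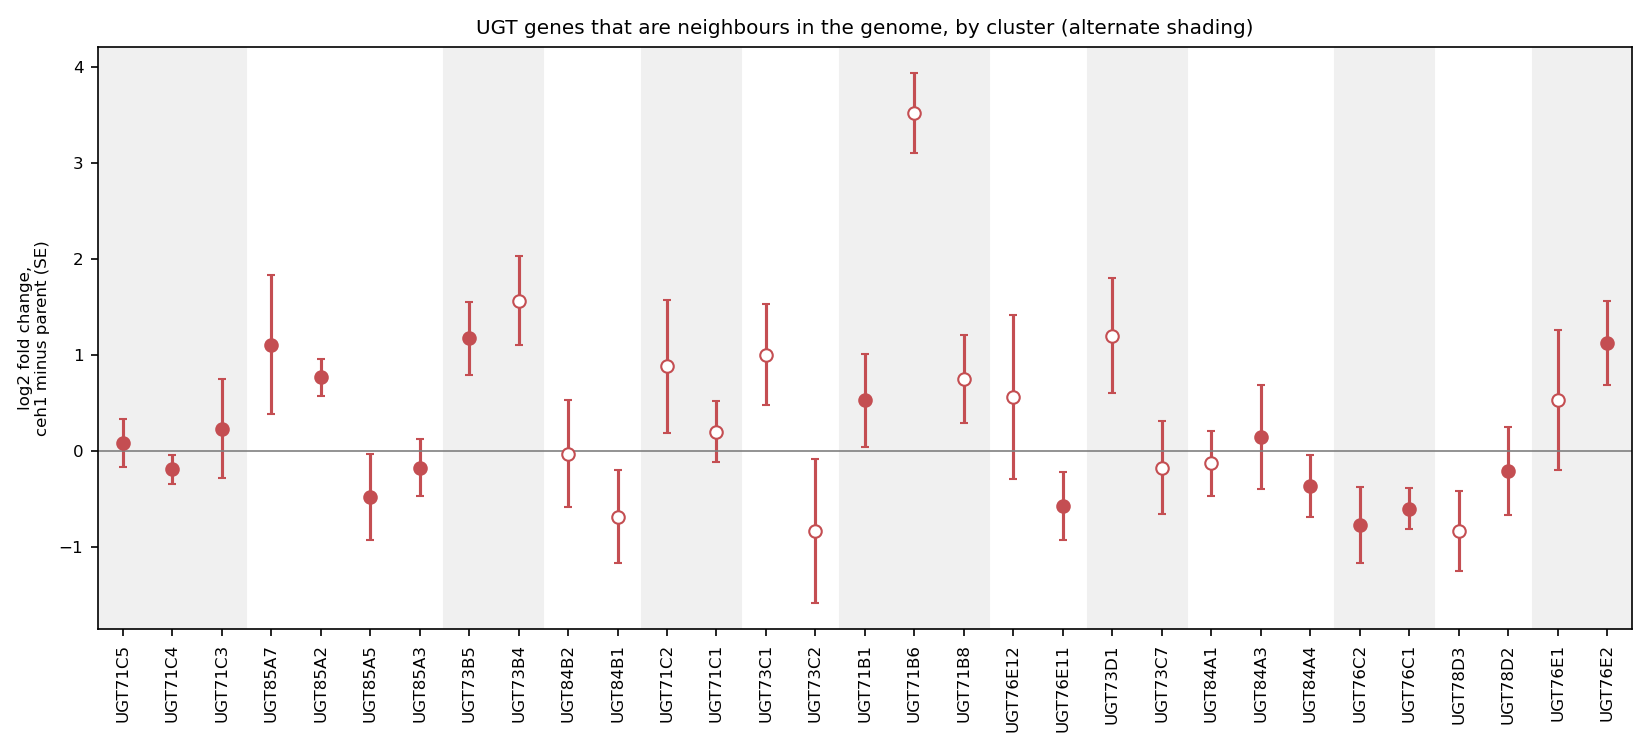
Log2 fold change (ceh1 minus parent, y axis, with the SE of the fit without a filter) of the 31 UGT genes in 13 clusters of neighbouring genes (x axis, alternate shading), with filled points for tested and open points for dim members. UGT71B6 at 3.51 stands above its neighbours UGT71B1 and UGT71B8, UGT73B4 and UGT73B5 are above 0 and both UGT76C genes below 0. UGT73B1, slightly below 0 with overlapping genotypes, is not shown because it had no neighbour among the members.

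The arrays contributed unequally to these patterns. ceh1 replicate 2 was the highest of the 6 arrays for 18 of the 47 UGTs, or 38.3%, beside 21.2% of all probe sets, and ceh1 replicate 1 was the highest for 0 of 47, beside 11.8%. ceh1 replicate 1 was the lowest array for 12 members, or 25.5%, beside 13.5% of all probe sets. The array's probe set for 25S ribosomal RNA read 1343, 4598 and 1132 on the ceh1 arrays and 416.9, 985.4 and 293.7 on the parent arrays, so it was also highest on ceh1 replicate 2. For actin, the 3' probe set over the 5' one gave 16.2, 17.3 and 17.4 in ceh1 and 19.7, 22.5 and 20.0 in the parent. Every ceh1 array thus had a higher 25S signal and a lower actin ratio than every parent array. Both measures split with genotype, so their part and that of genotype cannot be told apart, for UGT87A2 as for the other genes. Of the organ markers, 3 of root and 1 of leaf had a probe set of their own. PYK10, a root beta-glucosidase gene, had log2 signals of 10.46, 10.62 and 10.50 in ceh1 and of 9.49, 9.83 and 8.62 in the parent (limma, adjusted p = 0.0733). The root hair genes EXPA7 and EXPA18 were dim in both genotypes, between 1.57 and 3.95 on the log2 scale. Their differences of −0.75 and −0.38 lay the other way from the 1.21 of PYK10, and both overlapped between genotypes. YAB3, a leaf gene, differed by −0.31 and also overlapped. The part of these measures in the UGT values was not tested.

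Lists around the UGT reaction held 29 further probe sets with a single gene. Of these, 20 were tested and 1 rose, beside 2.62% of all tested probe sets. With 1 call among 20, this share cannot be placed against the background. The gene that rose was CCR2, a cinnamoyl-CoA reductase gene of the phenylpropanoid pathway. Its log2 signals were 5.48, 5.28 and 6.27 in ceh1 and 3.40, 3.71 and 2.78 in the parent. The groups did not overlap, and all parent arrays lay below the filter level, which CCR2 passed through its ceh1 arrays. It had a log2 fold change of 2.38 ± 0.38 (SE; limma, adjusted p = 0.0214). The call was lost without parent replicate 1, parent replicate 2 or ceh1 replicate 3, at an adjusted p of 0.0780, 0.0557 and 0.0908 (limma). In its list of 5, 4 were tested with a median of 1.02. CCOAMT, a methyltransferase gene, had a difference of 1.94 (limma, adjusted p = 0.0753), and HCT, an acyltransferase gene of lignin synthesis, one of −0.82 (limma, adjusted p = 0.0847). The dim member AT3G13610 had the largest difference of the list, 2.59, with all ceh1 arrays above all parent arrays. It did not pass (limma without the filter, adjusted p = 0.0740).

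The glutathione transferases are another large conjugating family of detoxification. Only 14 had a single-gene probe set under a matching symbol in the annotation used, in which 8730 of the 22746 probe sets had no gene. These 14 may thus not stand for the family. Of them, 8 were tested and 0 passed, beside 3.77% of all tested probe sets. All 8 had differences below 0, but 4 of 8 without normalization between arrays, beside 53.3% of all probe sets in the main setting. The median was −0.17, against −0.03 for all tested probe sets. The lowest adjusted p was that of GSTU18, with log2 signals of 8.14, 7.12 and 8.12 in ceh1 and of 8.87, 9.11 and 8.68 in the parent (limma, adjusted p = 0.0969). All ceh1 arrays lay below all parent arrays for 5 of the 14, beside 12.6% of all probe sets, and above for 0. The single UDP-sugar supply gene, USP, a UDP-sugar pyrophosphorylase, differed by −0.15, and the single transporter, the efflux carrier gene AT5G52050, by −0.37 (limma, adjusted p = 0.763 and 0.889). Of 3 flavonoid genes 2 were tested and 0 passed, with DFR, which acts in anthocyanin synthesis, at 1.44 (limma, adjusted p = 0.237). Of the 5 UGT-family genes with another symbol 4 were tested and 0 passed, with a median of 0.02. In lists this small, 0 calls cannot be placed against the 3.77% of all tested probe sets.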

How the data were processed

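Transcript levels were measured on 1-colour Affymetrix arrays of 3 ceh1 and 3 parent samples. The authors deposited probe set intensities on a linear scale, made with MAS5 per the submitters' processing notes. Its settings and scaling are not stated in those notes. The labels call the replicates biological without saying how they were grown apart, so p-values measure the spread between these samples. Array number, not depth, limits the precision. Of 22810 probe sets, 64 controls were set aside. Of the other 22746, 13513 had 1 gene in the platform annotation, 503 several and 8730 none. Names were checked against the TAIR10.1 gene table, and no coordinates are printed because no build is named.

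Values were taken as log2(intensity + 2), quantile normalised, filtered at the 30th percentile of the mean and compared with limma 3.58.1 in R 4.3.3 (eBayes with a trend, two-sided, Benjamini-Hochberg over all probe sets tested, threshold 0.05). The fit was also run on simulated arrays with independent noise for each probe set. These lacked the level differences and shared deviations of the real arrays, so that run does not bear on either. The alternatives changed the pseudocount (1 or 8), the filter (none or the 50th percentile), the normalization (none or median scaling) and the variance prior (no trend or robust), or used array weights, the replicate number as a block, or 5 of the 6 arrays. For dim members each was repeated without the filter, a choice made after seeing the data.

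The members, gene lists and settings were chosen with earlier results of these data known. Named UGTs were those past the threshold, those tested whose arrays did not overlap between genotypes with a log2 fold change of at least 1 in size, UGT74F1, UGT76B1, UGT87A2 and the tested member with the largest difference in each role group. Others were named after their values were seen. A chitinase gene that shares the symbol CHI was taken out of the flavonoid list after its rise had been seen. Other lists gave up to 4 passing members, or the one of lowest adjusted p, and those beyond were chosen after their values were seen.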

Additional observations from a re-analysis of the deposited data

How the results depend on the processing

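Of the UGTs, 1 passed with either other pseudocount, the filter at the 50th percentile, which left 19, no normalization, median scaling, no trend and robust eBayes, 2 of 27 with the replicate block, 4 of 27 with array weights and 2 of 47 without the filter (limma). Leaving out 1 array gave 0 to 2. For all probe sets the count of 600 became 384 with the stricter filter, 1815 with array weights and 1160 with the replicate block, and 152 to 676 with 1 array left out. Leaving out parent replicate 1 or 2 gave 168 or 152, and leaving out ceh1 replicate 2 or 3 gave 296 or 175. In the other lists the count of 1 became 0 with the stricter filter, under which CCR2 is not tested, 2 without normalization, 5 with array weights (CCR2, CCOAMT, HCT, IAGLU and GSTU18), and 0 to 2 with 1 array left out. Without the filter, 2 UGTs passed, with 1 array left out as well 0 to 2, being 0 without parent replicate 1 or 2 and 1 without ceh1 replicate 3. UGT87A2 had log2 fold changes of 1.29 to 1.68 over 17 settings and adjusted p of 0.00249 to 0.0659 (limma), missing the threshold in 2, at 1.39 and 1.38, and its range with 1 array left out was 1.29 to 1.56. UGT71B6 missed it in 2 of 15 without the filter.

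Of the 36 UGTs that the text names with values, 25 kept their sign in all settings run and 11 did not, all with differences of at most 0.21 in size. Without normalization the sign turned for UGT71C4 (0.031), UGT74B1 (0.086), UGT78D2 (0.027), UGT80B1 (0.24) and UGT85A3 (0.093), and for USP (0.10). With array weights it turned for UGT74B1 (0.10), UGT80B1 (0.28) and AT5G52050 (0.78). With 1 array left out UGT71C5 ran from −0.15 to 0.31, UGT74B1 from −0.40 to 0.087, UGT78D2 from −0.69 to 0.13, UGT80B1 from −0.25 to 0.31, UGT84A3 from −0.24 to 0.72, USP from −0.33 to 0.084 and AT5G52050 from −1.32 to 0.99. In fits without the filter UGT74F1 gave 0.0098 with a pseudocount of 8, 0.073 without normalization, and 0.11, 0.25 and 0.082 without parent replicate 2, ceh1 replicate 1 and ceh1 replicate 3. UGT84B2 gave 0.016 with a pseudocount of 8, 0.18 without normalization, 0.083 without parent replicate 1, 0.19 without parent replicate 3 and 0.50 without ceh1 replicate 1. UGT72E3 gave −0.029 with median scaling, −0.077 with array weights and −0.29 without ceh1 replicate 2, and UGT71C1 gave −0.036 with median scaling. The causes were not tested. Same-numbered arrays of both genotypes had correlations of their deviations of 0.27, 0.06 and 0.47 for replicates 1, 2 and 3. ceh1 replicate 1 correlated best with parent replicate 2, at 0.34, and the numbers were not taken as pairs. ceh1 replicate 3 had −0.34 and −0.40 with parent replicates 1 and 2, so these values do not settle whether the replicates were paired. With the replicate number as a block, the UGTs past the threshold were UGT85A4, at an adjusted p of 0.0327, and UGT87A2 (limma).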

Other observations

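UGT symbols also stood on 3 probe sets shared with another gene and were not members. The probe set for UGT73B2 and UGT73B3 had log2 signals of 4.66, 6.04 and 7.30 in ceh1 and of 4.07, 4.37 and 4.69 in the parent. Here ceh1 replicate 1 lay just below parent replicate 3, and the log2 fold change was 1.62 ± 0.60 (SE; limma, adjusted p = 0.187). The probe set for AT1G73885 and UGT89B1 differed by 0.69, with 7.49, 7.47 and 6.92 in ceh1 and 7.15, 7.37 and 5.31 in the parent, where parent replicate 3 was low. The probe set for UGT71D1 and AT2G29710 differed by −0.04 (limma, adjusted p = 0.964). Which of the paired genes gave the signal was not tested.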
